A study of Mus musculus with 42 samples.

Results

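The genes described here are 55 olfactory receptors that lie beside the class I receptor cluster of mouse chromosome 7. They are all the genes of the count table whose GENCODE M21 symbol is Olfr plus a number and that lie on chromosome 7 of GRCm38 between 106000001 and 109500000. The table holds 44674 genes, 1026 of them with such a symbol. In the annotation 66 symbols meet the rule, and the 55 in the table were analysed. All 55 are annotated as protein coding and 29 lie on the minus strand. The last class I receptor before them ends at 105369355, the first of the 55 genes starts at 106675005 and the last ends at 108894420. A gap of 661.7 kb separates 2 blocks. Block 1, nearer the class I cluster, holds 20 genes from Olfr693 to Olfr716, among them Olfr6, Olfr711, Olfr2, Olfr713, Olfr714 and Olfr17. Block 2 holds 35 genes from Olfr467 to Olfr519.

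pS6-ribotrap captures ribosomes that carry phosphorylated ribosomal protein S6, together with their mRNA, from cells that were recently active. For 1 h, male C57BL/6NCrl mice of 8 to 12 weeks smelled a normal chow diet (NCD), a bacon-flavoured diet (BFD), a lard-based high-fat diet (HFD_lard) or nothing added (no odour), and the main olfactory epithelia of 4 mice formed each pool. The no odour group had 5 pools, NCD 6, BFD 5 and HFD_lard 5. Each pool gave an input library of the whole tissue and a pulldown library.

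Each mature olfactory sensory neuron expresses a single allele of a single receptor gene, so the RNA of a receptor reads out the neurons that chose it. A receptor bound by an odorant activates the G protein Golf, adenylyl cyclase raises cyclic AMP, and a cyclic nucleotide-gated channel and a calcium-activated chloride channel depolarize the cell. Class I receptors are the family shared with fish. Class II receptors are the larger family of land vertebrates, and the 2 classes sit side by side on mouse chromosome 7.

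The coding sequences were compared first, to check the class. The coding sequence of 53 of the 55 receptors was nearest to a class II receptor, and their best identity with any class I receptor of chromosome 7 was at most 60.5%. Olfr503 and Olfr504, neighbours in block 2, went the other way. Olfr503 was 97.1% identical to the class I receptor Olfr658 and Olfr504 95.6% identical to the class I receptor Olfr657, while their identity with the other 53 genes was 55.9 to 58.8%. By sequence these 2 genes are class I receptors among class II neighbours.

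A short stretch at the inner end of the third transmembrane helix, which contains the DRY triplet that meets the G protein, shows the difference in single codons. It was found in all 55 coding sequences. The stretches below were read from the GENCODE M21 transcripts, 5′ to 3′, with the third and the sixth codon in capitals. They show Olfr6 and Olfr17 of block 1, which were high in the pulldown, and Olfr710 of block 1, which was high but uneven between pools. Also shown are Olfr698 of block 1, receptors of block 2 with both forms of the sixth codon, and the pair that resembles class I.
Olfr6: atggccTATgatcgtTATgtagccatatgt
Olfr17: atggcaTATgaccgcTACatggcgatctgt
Olfr710: atgtcaTATgaccgcTACatagctgtctgc
Olfr698: atggccTATgacaggTATgtagccatttgt
Olfr491: atggccTATgacagaTATgttgctatttgc
Olfr469: atggctTATgatcgtTTTatagcaatctgc
Olfr506: atggctTATgatcgcTTTgtggcaatctgt
Olfr503: atggctCTGgaccacTATgtagccatttgc
Olfr504: atggctTTTgacagaTATgtagctatttgc
The third codon encoded tyrosine in 53 of the 55 receptors, leucine in Olfr503 and phenylalanine in Olfr504. Among 94 class I receptors of chromosome 7 with the stretch, it encoded phenylalanine in 58 and tyrosine in 7. The sixth codon, the last of the DRY triplet, was uniform in block 1 and mixed in block 2. It encoded tyrosine in all 20 receptors of block 1. In block 2 it encoded phenylalanine in 18 of 35 receptors (51.4%), tyrosine in 15 and leucine in Olfr486 and Olfr487. Phenylalanine stood there in 13.0% of 777 other receptors with the stretch and in 19.1% of the class I receptors.

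Within block 1 the first genes were alike and the later ones were not. From Olfr693 to Olfr704, leaving out Olfr702, 36 pairs had a median coding identity of 80.8% (78.0 to 94.0%). Among the other 11 genes of the block, Olfr702 and those from Olfr707 to Olfr716, 55 pairs had a median of 62.0% (58.2 to 92.6%), and the pair at 92.6% was Olfr713 and Olfr714. Block 2 held several close families, with Olfr486 and Olfr487 at 96.2% identity, Olfr476 and Olfr477 at 95.2%, and Olfr516 and Olfr519 at 94.8%. No pair across the blocks was above 66.8%.

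**Figure D1:**
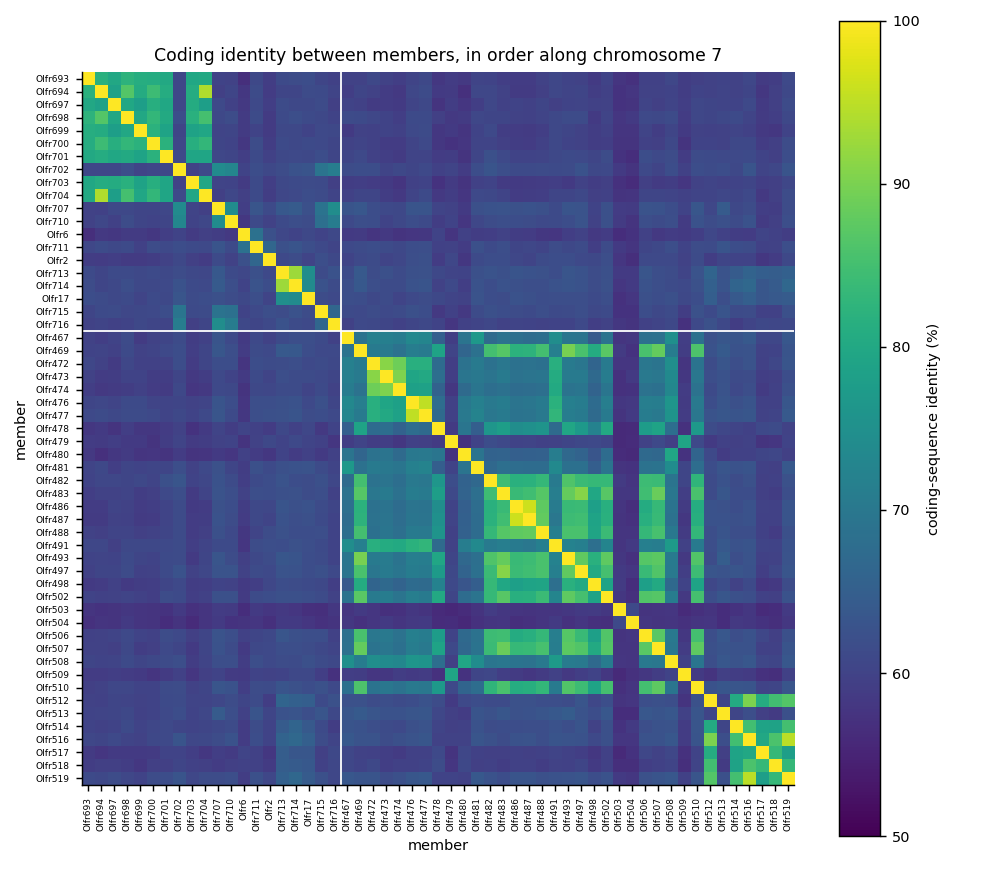
Identity of coding sequences (%, colour) between all pairs of the 55 receptors, in order along chromosome 7 on both axes, with white lines between block 1 and block 2. The first 10 genes hold a family of 78.0 to 94.0% identity from which Olfr702 is absent, and Olfr503 and Olfr504 stand as dark lines because their identity with the other receptors is at most 58.8%.

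Reads from near-identical copies cannot be told apart, so the share of each receptor's 31-base words that also occur in another gene was counted. The median was 10.49%, and 28 of the 55 receptors shared over 10% of their words. Olfr711 shared 0.147%, Olfr6 0.82%, Olfr17 1.705%, Olfr693 1.63%, Olfr2 2.34%, Olfr698 3.235%, Olfr479 3.63% and Olfr491 4.01%, and Olfr710 shared none. Olfr506 shared 16.5%, Olfr477 24.4%, Olfr469 41.0% and Olfr715 49.8%, so the division of reads between these and their copies is uncertain. Exons of 6 of the 55 overlap exons of other genes.

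Promoter windows of RefSeq (GRCm38.p6) matched the GENCODE start of a spliced model within 50 bases for 4 of the receptors, Olfr701, Olfr710, Olfr711 and Olfr478. The windows of the other receptors did not meet this and were not used. The 250 bases before the RefSeq start are given for 3 of these. Olfr711 was high in the pulldown, Olfr710 was high but uneven between pools, and Olfr701 was not high. Capitals mark CCCNNGGG, the core recognized by O/E (Ebf) proteins, and TAATNA, the core recognized by LIM homeodomain proteins such as Lhx2, on either strand. The letters of these motifs do not overlap.
Olfr711, chr7:106975452-106975701, minus strand: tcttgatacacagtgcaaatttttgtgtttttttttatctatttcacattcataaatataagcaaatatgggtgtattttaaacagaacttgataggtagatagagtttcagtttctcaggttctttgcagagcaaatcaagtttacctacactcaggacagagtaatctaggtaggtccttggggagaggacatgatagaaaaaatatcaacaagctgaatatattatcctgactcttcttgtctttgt
Olfr710, chr7:106948313-106948562, minus strand: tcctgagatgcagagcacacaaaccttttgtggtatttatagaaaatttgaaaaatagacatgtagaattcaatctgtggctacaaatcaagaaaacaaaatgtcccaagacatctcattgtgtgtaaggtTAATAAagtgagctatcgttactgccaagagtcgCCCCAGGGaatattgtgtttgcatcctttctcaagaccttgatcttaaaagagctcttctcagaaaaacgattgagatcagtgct
Olfr701, chr7:106813879-106814128, plus strand: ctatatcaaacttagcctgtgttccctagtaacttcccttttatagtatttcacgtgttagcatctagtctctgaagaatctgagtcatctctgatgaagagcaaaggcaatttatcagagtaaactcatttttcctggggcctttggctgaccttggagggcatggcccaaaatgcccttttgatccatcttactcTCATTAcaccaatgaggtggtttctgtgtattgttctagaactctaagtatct
Olfr710 held both motifs, Olfr701 held TAATNA only and Olfr711 held neither. TAATNA occurred in 65.5% of 58 receptor windows of this kind and in 24.3% of all 32851 promoter windows, and CCCNNGGG in 15.5% and 11.8%.

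The receptors were scarce in the tissue. In the 21 input libraries the 55 genes together took 0.00807 to 0.01065% of the counts as group means, and 3.68 to 3.84% of all olfactory receptor counts. Per length, Olfr491 had the highest level, 2.76 ± 0.49 normalised CPM (counts scaled to library size) per kb of exon (SD, n = 21). Olfr701 followed with 2.72 ± 0.488 CPM per kb, Olfr17, also called P2, with 2.12 ± 0.283, Olfr477 with 1.80 ± 0.198 and Olfr711 with 1.67 ± 0.205. Olfr491 and Olfr701 differed by less than their SD, and so did Olfr477 and Olfr711. Among the tested receptors Olfr714 (0.101 ± 0.0269), Olfr498 (0.116 ± 0.0491) and Olfr518 (0.0595 ± 0.0326) were the lowest per kb. Of the named receptors, Olfr2, the octanal receptor I7, had 1.18 ± 0.145 CPM per kb, Olfr6, also called M50, 0.917 ± 0.112, and Olfr713 0.168 ± 0.0415.

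The filter on low counts kept 42 of the 55 receptors, all 20 of block 1 and 22 of block 2. The 13 without a test all lie in block 2 and include Olfr503 and Olfr504. Their mean counts were 0.1 to 5.5 in input and 0.1 to 4.5 in pulldown, and 12.3 was the highest value of any of them in any library. The levels by receptor show block 1 spread over the upper and middle range and the 12 lowest places taken by receptors of block 2.

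**Figure D2:**
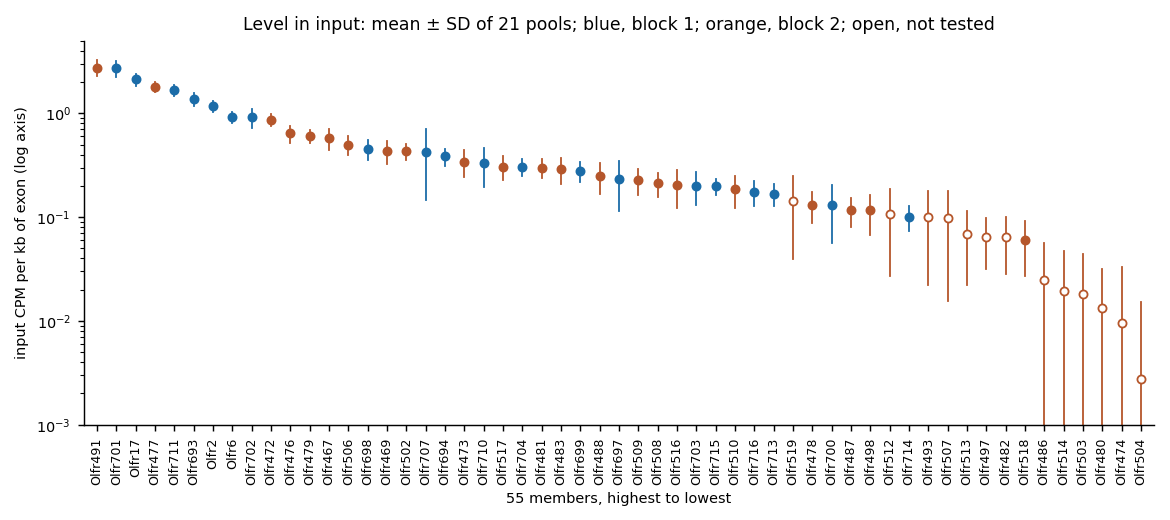
Level of each of the 55 receptors in input, in CPM per kb of exon on a log axis (mean and SD of 21 pools), from the highest to the lowest. Blue marks block 1, orange marks block 2 and open circles mark the 13 receptors without a test; levels run from 2.76 for Olfr491 to 0.00275 for Olfr504.

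Depth was even, with 25392812 to 36738330 counts in pulldown and 24839555 to 36781553 in input libraries, and no pair of libraries of a group agreed within sampling noise. The tissue label held, since the summed markers of mature sensory neurons (7 of 7 at 1 CPM or more, Omp and Cnga2 among them) reached 14660 to 18410 CPM in input without odour. Pulldown and input differed in the markers of several cell types. Without odour, the summed markers of supporting cells (5 of 5) were at 1467 to 2744 CPM in pulldown and 5463 to 7075 in input, horizontal basal cells (3 of 3) at 9.63 to 22.1 and 62.8 to 69.2, red cells (4 of 4) at 1551 to 2250 and 354.4 to 708.3, and immature sensory neurons (4 of 4) at 861.5 to 958.4 and 613.4 to 691.0. Bowman's gland markers (4 of 4) were at 2960 to 4128 CPM in the pulldowns without odour and 9497 to 18580 with odour, and in the same libraries the share of ribosomal RNA genes was 19.1% ± 4.93 without odour (SD, n = 5) and 10.5 to 11.7% as group means with odour. In input the gland markers were at 5150 to 11960 CPM without odour and 6829 to 12720 with odour, which overlapped. The part of these markers and of ribosomal RNA in the results below was not tested, except for ribosomal RNA as a covariate of the fit. In bulk tissue, fewer neurons of a receptor and less receptor RNA per neuron cannot be told apart.

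The first question was where the receptors stood in the pulldown without any added odour. Of the 42 tested receptors, 7 were higher in pulldown than in input and 1 was lower (edgeR quasi-likelihood test, adjusted p under 0.001). Over all 21168 genes tested, 19.8% were higher and 16.0% lower at the same threshold. The 4 receptors of block 1 that rose were Olfr711, Olfr6, Olfr710 and Olfr17, all between Olfr707 and Olfr716. The 3 of block 2 were Olfr479, Olfr469 and Olfr491. Olfr506, also of block 2, was the one that fell. Olfr469 was named for its call after its values were seen.

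Olfr711 (ENSMUSG00000045013, chr7:106969694-106975453) stood out by its distance from input. Its log2 pulldown/input was 2.04, 2.24, 2.29, 2.37 and 1.97 in the 5 pools without odour. The counts were 736 to 970 in pulldown and 153 to 268 in input, so pulldown exceeded input in every pool. The fitted difference was 2.19 on the log2 scale (SE 0.11, 4.56-fold, 95% interval 3.91 to 5.32, adjusted p = 1.24e-13).

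Olfr6 (ENSMUSG00000036647, chr7:106953251-106963937), its neighbour and closest relative among the 55 at 68.6% coding identity, came next. The log2 ratio was 1.55, 1.51, 1.41, 1.85 and 1.34 in the 5 pools. Pulldown counts of 335 to 495 were above input counts of 137 to 176 in every pool, a 2.91-fold difference (log2 1.54, SE 0.11, adjusted p = 1.69e-11).

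Olfr17 (ENSMUSG00000073897, chr7:107093220-107099808), studied as the P2 receptor in work on axon targeting, had log2 ratios of 1.01, 1.31, 1.15, 0.84 and 0.65. All 5 pools were above 0, with a 1.99-fold difference (log2 1.00, SE 0.11, adjusted p = 1.44e-08). Olfr710 (ENSMUSG00000045581, chr7:106943911-106948312) was far less even, with log2 ratios of 0.94, 2.67, 1.35, 2.22 and -0.13 from 18 to 48 counts in pulldown and 3 to 21 in input. Its fitted difference was 1.45 (SE 0.33, adjusted p = 0.000563), and the pool of replicate 6 lay on the other side of 0.

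The 3 called receptors of block 2 rose less than Olfr711 and Olfr6. Olfr479 had log2 ratios of 0.89, 0.75, 0.75, 1.07 and 0.67 (fitted 0.84, SE 0.16, adjusted p = 6.08e-05). Olfr491, the most abundant of the 55 per length, had 0.77, 0.84, 0.70, 0.53 and 0.84 (fitted 0.74, SE 0.13, adjusted p = 1.73e-05). Olfr469, which shares 41.0% of its words with other genes, had 0.40, 1.04, 0.83, 0.86 and 0.82 (fitted 0.81, SE 0.18, adjusted p = 0.000308). All 15 of these values were above 0.

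Olfr506 (ENSMUSG00000058244, chr7:108610787-108615340) was lower in pulldown in all 5 pools. The log2 ratios were -1.14, -1.60, -0.81, -1.08 and -1.06, from 13 to 30.6 counts in pulldown and 44.4 to 68.2 in input. The fitted difference was -1.18 (SE 0.22, a fold of 0.442, 95% interval 0.323 to 0.605, adjusted p = 5.32e-05). Olfr478 had a lower estimate, -1.34, but from few counts (SE 0.63, adjusted p = 0.0712).

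Position went with the ratio inside block 1. All 10 receptors from Olfr707 to Olfr716 had fitted log2 ratios above 0, from 0.33 for Olfr713 to 2.19 for Olfr711, with a median of 0.93. The 10 before them, Olfr693 to Olfr704, ran from -0.55 to 0.35 with a median of -0.07, and none passed the threshold. This division was drawn after the values were seen and is a description. Within the later run Olfr715 shared 49.8% of its words with other genes, Olfr707 38.8% and Olfr714 17.3%. Olfr707 had 38.3, 11.1, 27.4, 77.5 and 84.7 counts in pulldown without odour. In input it had 57.4, 20.4, 12.8, 44.6 and 21.1, so its pools lay on both sides. Over block 1 the median was 0.33, over the 22 tested receptors of block 2 -0.20, over all 42 0.14, over the 908 receptors tested -0.19 and over all genes tested 0.01. The 96 tested class I receptors of chromosome 7 had a median of -0.64, with 1 higher and 18 lower at the threshold. That is 19.8% called, against 35.8% of all genes.

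**Figure D3:**
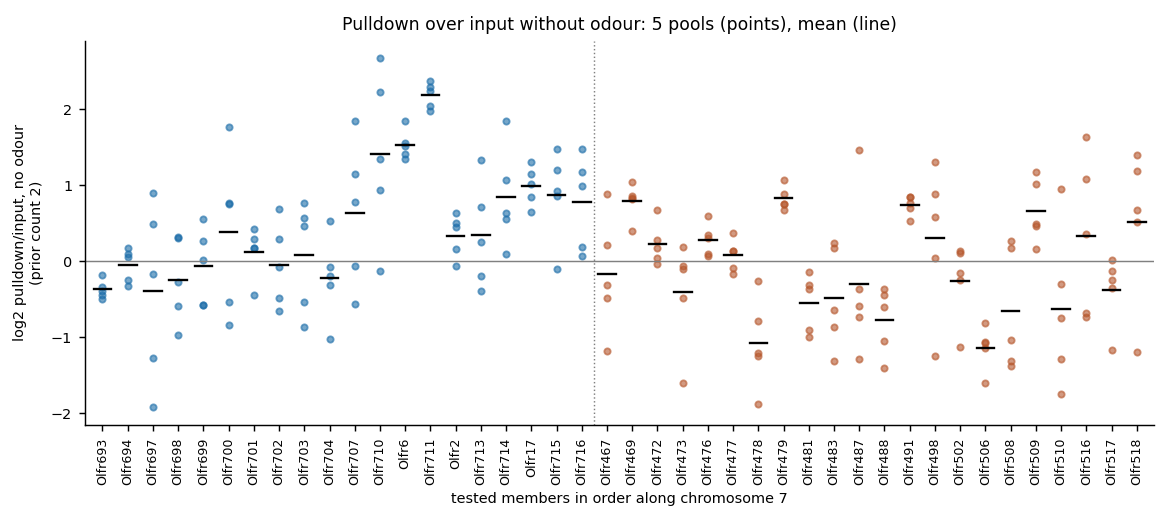
Log2 pulldown/input without odour (prior count 2) for the 42 tested receptors in order along chromosome 7, with 5 pools as points and their mean as a line; blue marks block 1 and orange marks block 2. The means rise above 0 from Olfr707 to Olfr716, with Olfr711 at 2.18 and Olfr6 at 1.53, and Olfr506 has the lowest mean, -1.14.

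The ratio was also read by the form of this codon, as a description without a test. Receptors with tyrosine at the sixth codon had a median log2 ratio of 0.26 over 30 tested receptors, and those with phenylalanine -0.41 over 11. Within block 2, where both forms occur, the medians were 0.15 over 10 receptors and -0.41 over 11. The ranges within block 2 overlapped over most of their length, -0.74 to 0.84 and -1.34 to 0.81, and over all 42 receptors the codon cannot be told apart from the block. Receptors with the same codon also belong to the same sequence families and share reads.

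The other genes of the interval were mixed. Of 15 other protein-coding genes in the same interval 12 were tested, with a median of 0.03. The LIM protein gene Lmo1 was higher in pulldown (log2 0.79, SE 0.16, adjusted p = 0.000108), as were the kinase gene Stk33 (0.96, adjusted p = 2.18e-07) and the synaptotagmin gene Syt9 (0.57, adjusted p = 1.56e-05). Ric3, a chaperone of acetylcholine receptors, was lower (-0.53, adjusted p = 2.82e-07), and so was Olfml1 (-0.85, adjusted p = 8.35e-06). Of 20 genes of odour transduction and receptor trafficking, 9 were higher and 1 lower. The cyclase gene Adcy3 (0.77, adjusted p = 2.13e-10), the channel subunit gene Cnga2 (0.64, adjusted p = 7.26e-09) and the chloride channel gene Ano2 (0.44, adjusted p = 7.71e-07) were among the higher. Rtp2, which carries receptors to the membrane, was the lower one at an adjusted p under 0.001 (-0.33, adjusted p = 1.21e-05).

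Olfr711, Olfr6 and Olfr17 were the only ones of the 8 past the threshold with a term for the replicate number (3 calls) and with ribosomal RNA in the model (4 calls, Olfr716 added). Leaving out 1 pool without odour removed Olfr710 (pools 1, 2, 3 or 4, adjusted p up to 0.0081) and Olfr469 (pools 2, 3, 4 or 6, up to 0.00243).

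The second question was how the ratio changed with each odour. None of the 42 receptors passed an adjusted p of 0.001 with edgeR under NCD, BFD or HFD_lard odour. Over all genes 0.524%, 3.78% and 1.22% passed. The same design in DESeq2 called Olfr2 under NCD odour and Olfr698 under BFD odour and none under HFD_lard odour, with 1.53%, 5.57% and 2.15% of all genes called higher. DESeq2 on pulldown divided by input, a form closer to the methods of the study, made calls under each of the 3 odours. Those calls are counted at the end, without a share over all genes. The 3 comparisons share the 5 pools without odour, so they are not independent of each other.

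At weaker thresholds the calls were increases under NCD and BFD odour and of both directions under HFD_lard odour. Under NCD odour 5 receptors were higher and 0 lower at an adjusted p under 0.05, 11.9% of the 42 against 13.1% of all genes. At an unadjusted p under 0.05, 9 were higher and 0 lower, where 13.9% and 14.0% of all genes were. Under BFD odour 7 were higher and 0 lower at the adjusted level, 16.7% against 22.5% of all genes, and 8 and 0 at the unadjusted level (17.2% and 16.4% of all genes). Under HFD_lard odour 3 were higher and 1 lower, 9.52% against 15.7% of all genes, and 7 and 3 at the unadjusted level (14.4% and 15.2%). Increases also prevailed among the 866 other receptors tested, with 180 higher and 17 lower at the unadjusted level under NCD odour, 192 and 15 under BFD odour and 187 and 18 under HFD_lard odour.

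The medians of the group were near those of all receptors. Their median log2 change was 0.23 under NCD, 0.28 under BFD and 0.26 under HFD_lard odour. Over all 908 receptors it was 0.23, 0.29 and 0.27. In the pulldowns the summed markers of mature sensory neurons were at 17410 to 23730 CPM with odour (median 21360) and 15360 to 19130 without (median 15920), with overlap. Those of immature neurons were at 647.1 to 832.6 (median 791.0) and 861.5 to 958.4 (median 896.5), without overlap. Their part in the medians was not tested. The class I receptors of chromosome 7 had medians of 0.53, 0.54 and 0.79, and the other protein-coding genes of the interval -0.19, -0.16 and -0.20. Of the 42 receptors, 25 were above 0 under all 3 odours and 10 below 0.

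Olfr506, the one receptor lower in pulldown without odour, had the highest estimates under NCD and BFD odour. Its log2 pulldown/input was 0.56, 0.36, -0.54, 0.20 and 0.54 with BFD odour and between -0.52 and 0.69 (median 0.07) with NCD odour. Every one of these 11 pools was above the highest pool without odour, -0.81. With HFD_lard odour the values were -1.0, -1.11, 0.17, -0.37 and -0.34, and 2 of the 5 pools lay within the range without odour. The fitted changes were 1.42 under BFD (SE 0.30, adjusted p = 0.00145), 1.25 under NCD (SE 0.29, adjusted p = 0.00721) and 0.64 under HFD_lard odour (SE 0.30, adjusted p = 0.16). Since the no odour pools enter both results, a low ratio there and an increase from it are not separate observations.

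The pulldown means of Olfr506 were higher and the input means lower in each odour group than without odour. In pulldown the mean was 0.856 ± 0.293 CPM (SD, n = 5) in the no odour group, 1.60 ± 0.285 under NCD (n = 6), 1.69 ± 0.442 under BFD (n = 5) and 1.13 ± 0.376 under HFD_lard odour (n = 5). In input it was 1.92 ± 0.439, 1.52 ± 0.224, 1.42 ± 0.267 and 1.60 ± 0.15 CPM in the same order.

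Olfr698 (ENSMUSG00000059087, chr7:106749889-106755397) had higher ratios under all 3 odours, at adjusted p-values above 0.001. Without odour its log2 ratios were -0.59, 0.30, 0.32, -0.27 and -0.97. With BFD odour they were 0.48, 0.72, 1.33, 0.68 and 1.77, and with NCD odour 0.41 to 1.06 (median 0.83), all above the highest pool without odour. With HFD_lard odour they were 0.22, 1.40, 1.13, 1.10 and 0.62, with 1 pool inside the range without odour. The fitted changes were 1.25 under BFD (SE 0.28, adjusted p = 0.00256), 1.17 under HFD_lard (SE 0.29, adjusted p = 0.00733) and 1.05 under NCD odour (SE 0.28, adjusted p = 0.0137). Without the pool of BFD replicate 1, the adjusted p under BFD odour was 0.000991.

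Olfr2, the octanal receptor, had the smallest p under NCD odour. Its log2 ratios without odour were 0.16, -0.06, 0.63, 0.45 and 0.50, and with NCD odour 0.64 to 1.24 (median 1.08), just above them. With BFD odour they were 0.67, 0.83, 0.82, 0.66 and 0.90, and with HFD_lard odour 0.67, 0.57, 1.06, 0.97 and 0.65. The fitted changes were 0.66 (SE 0.14, adjusted p = 0.00378) under NCD, 0.44 (adjusted p = 0.0278) under BFD and 0.45 (adjusted p = 0.0341) under HFD_lard odour.

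Olfr693 and Olfr477 had higher estimates with NCD and BFD odour than with HFD_lard odour. Olfr693 had -0.44, -0.18, -0.50, -0.34 and -0.39 without odour, 0.06, 0.55, 0.30, 0.38 and 0.24 with BFD odour, -0.12 to 0.50 with NCD odour (median 0.13) and -0.30, -0.76, -0.73, -0.48 and 0.09 with HFD_lard odour. Its changes were 0.68 under BFD (SE 0.16, adjusted p = 0.00374) and 0.53 under NCD odour (SE 0.16, adjusted p = 0.0289). Between HFD_lard and BFD odour it differed by -0.75 (SE 0.16, adjusted p = 0.0678), the smallest p of any of the 42 between 2 odours. Olfr477 had -0.17 to 0.37 without odour and 0.48 to 0.93 with NCD odour, a change of 0.59 (SE 0.14, adjusted p = 0.00892), and 0.48 under BFD odour (adjusted p = 0.019). Under HFD_lard odour its ratios were -0.07 to 0.31, inside the range without odour.

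Olfr694 and Olfr701 had their smallest p under HFD_lard odour, in opposite directions. Olfr694 had 0.06, -0.24, 0.17, 0.09 and -0.33 without odour and 0.59, 0.55, 1.05, 0.61 and 0.83 with HFD_lard odour, with no overlap (change 0.80, SE 0.19, adjusted p = 0.00736). Under BFD odour its change was 0.70 (adjusted p = 0.0106) and under NCD odour 0.46 (adjusted p = 0.106). Olfr701, abundant in the tissue, had 0.18, 0.18, -0.44, 0.43 and 0.29 without odour and -0.17, -0.57, -0.52, -0.03 and -0.60 with HFD_lard odour, where the groups overlapped through 1 pool (change -0.52, SE 0.17, adjusted p = 0.0352). Its pulldown counts before normalization were 272.2 ± 97.2 without odour and 289.2 ± 46.9 with HFD_lard odour (mean and SD, n = 5 each). In input they were 272.9 ± 46.1 and 380.9 ± 90.5, so the lower ratio went with a higher input and not with a lower pulldown mean. Olfr713 had -0.39 to 1.33 without odour and 0.78 to 1.45 with BFD odour, which overlapped, and its changes were 0.87 under BFD (SE 0.29, adjusted p = 0.0288) and 0.81 under NCD odour (adjusted p = 0.0546).

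**Figure D4:**
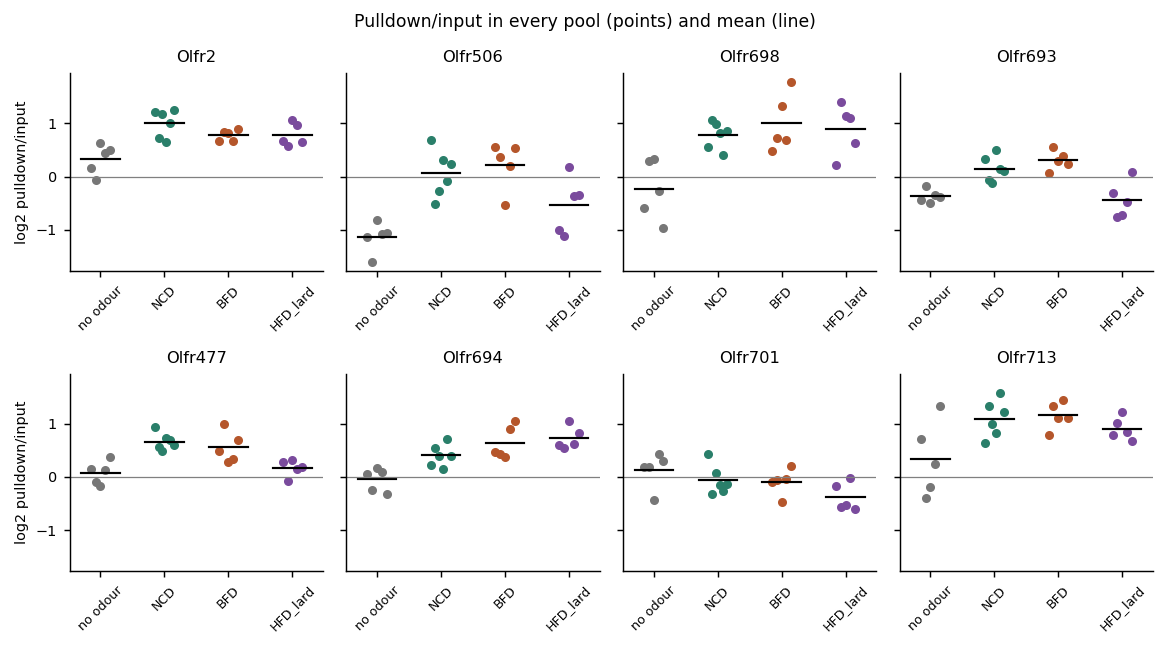
Log2 pulldown/input in every pool (points) with the mean (line) for the 8 receptors with the smallest p under an odour, by odour group (5, 6, 5 and 5 pools). Olfr506 lies between -1.60 and -0.81 without odour and between -0.54 and 0.69 with NCD or BFD odour, and Olfr701 is the one whose mean is lower with each odour.

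The changes of Olfr711, Olfr17 and Olfr6, which were high in pulldown without odour, were small beside those ratios. Olfr711 changed by 0.26 under NCD (95% interval -0.04 to 0.55), 0.00 under BFD (-0.31 to 0.32) and 0.26 under HFD_lard odour (-0.04 to 0.56). Olfr17 changed by 0.05 (-0.24 to 0.34), -0.14 (-0.45 to 0.16) and 0.23 (-0.08 to 0.53). Olfr6 changed by 0.31 (0.01 to 0.60, adjusted p = 0.159), 0.25 (-0.06 to 0.56) and 0.39 (0.09 to 0.70, adjusted p = 0.0731). These intervals leave out a doubling, which is 1 on the log2 scale. Over all 42 receptors the median half-width of the interval was 0.67 to 0.70, and the upper bound was below a doubling for 27 receptors under NCD, 18 under BFD and 20 under HFD_lard odour.

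**Figure D5:**
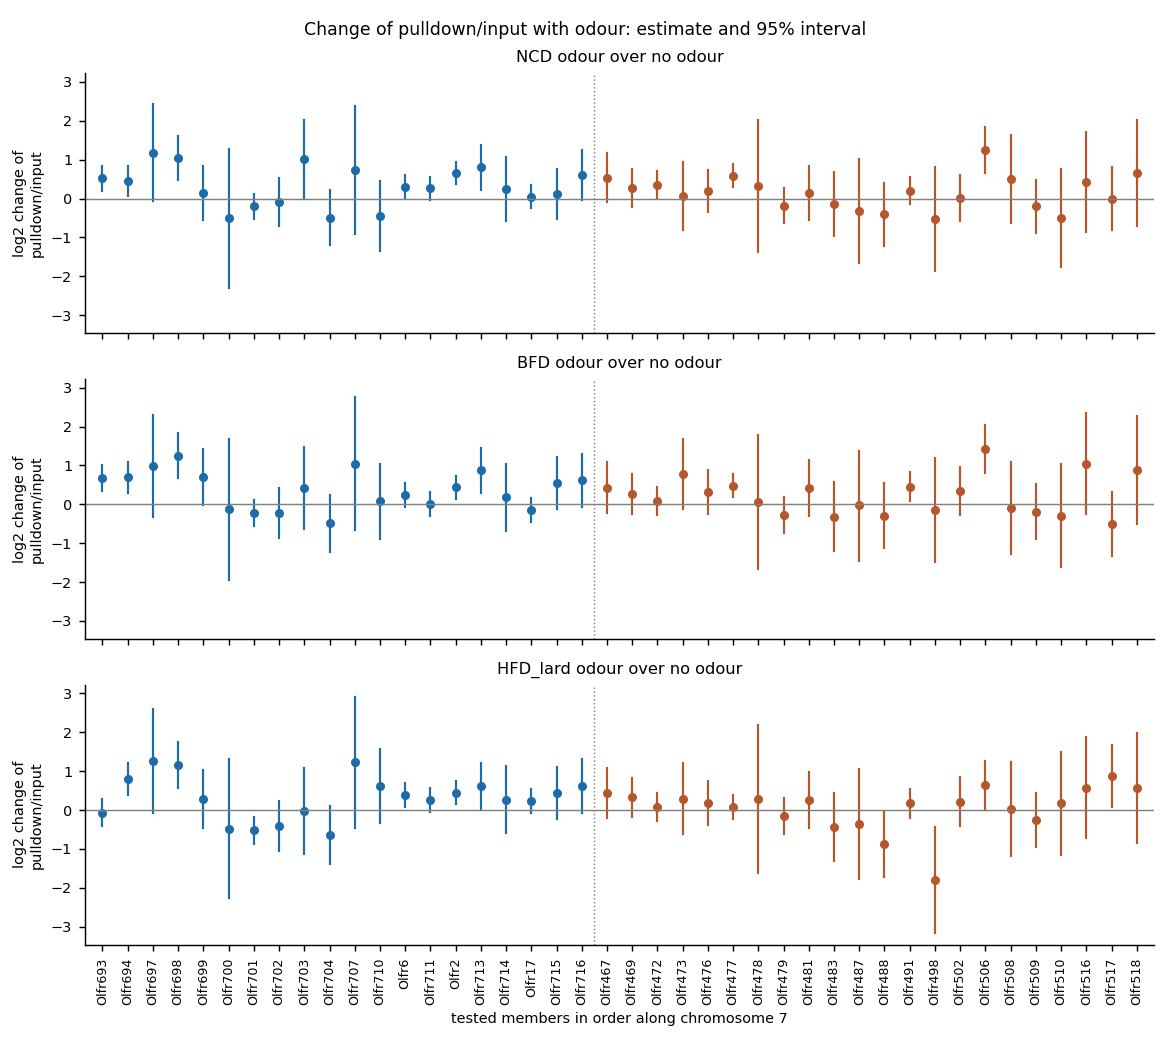
Log2 change of pulldown/input under each odour over no odour (points) with 95% intervals (lines) for the 42 tested receptors in order along chromosome 7; blue marks block 1 and orange marks block 2. Olfr506 has the highest estimate under NCD (1.25) and BFD odour (1.42), and intervals are wide for receptors with few counts, such as Olfr700 and Olfr478.

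Of the 20 transduction and trafficking genes none passed an adjusted p of 0.001 under NCD or HFD_lard odour. Under BFD odour 2 did, both higher, 10.0% against 3.78% of all genes. These were Omp, the marker of mature sensory neurons (log2 0.64, SE 0.10, adjusted p = 0.000189), and Gng13, the G protein gamma subunit (1.33, SE 0.24, adjusted p = 0.000614). In input with any odour over none, Gng13 was lower (log2 -0.82, adjusted p = 0.000863) and Omp had an estimate of -0.29 (adjusted p = 0.00213), so the input also moved with these ratios.

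Between odours no receptor differed at an adjusted p under 0.001, with edgeR or with DESeq2 in the same design. Over all genes 0.0378% differed between HFD_lard and BFD odour, 0.0236% between HFD_lard and NCD odour and 0.00945% between BFD and NCD odour. At an unadjusted p under 0.05, 6 of the 42 receptors differed between HFD_lard and BFD odour, 6 between HFD_lard and NCD odour and 0 between BFD and NCD odour, against 8.0%, 4.62% and 7.24% of all genes.

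In the input libraries none of the 42 differed between any odour and no odour at an adjusted p under 0.001, with either tool, where 11.5% of all genes did. At an unadjusted p under 0.05 there were 10, 8 of them higher, against 43.9% of all genes. The smallest adjusted p belonged to Olfr701 (log2 0.37, SE 0.10, adjusted p = 0.00507), whose ratio was lower with HFD_lard odour, and to Olfr6 (0.28, SE 0.08, adjusted p = 0.00748). The median over the 42 receptors was 0.04, the same as over all 908 receptors.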

How the data were processed

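The authors made libraries from pulldown and input RNA with an amplification kit for small amounts, quantified them on GRCm38 with Salmon in the nf-core rnaseq pipeline, and deposited the estimated counts of each gene without normalization. The annotation release is not given in the sources used here. Of all values 30.9% were not whole (44.9% for the 55 receptors), because Salmon divides shared reads. Gene names and positions came from GENCODE M21, which named 44118 genes, and the other 556 were tested by identifier.

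Counts were rounded to whole numbers and filtered with filterByExpr (minimum count 10), which left 21168 genes. All 42 libraries entered 1 quasi-likelihood fit in R 4.3.3 with edgeR 4.0.16 and limma 3.58.1, TMM normalization, 1 term per pool and pulldown-by-odour terms. The tissue of a pool gave both of its libraries, so each pulldown was set against its own input. Checked on the counts, deviations from the group means had a median correlation of 0.014 between a pulldown and its own input over 21 pools, and -0.004 with other inputs. The counts thus gave no sign of the pairing, which rests on the labels. Input libraries were compared in a fit of their own. P-values are two-sided and Benjamini-Hochberg adjusted over all 21168 genes, with a threshold of 0.001 taken from the methods of the study. Log2 ratios per pool used a prior count of 2. The fit was tested on simulated data.

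Conditions and replicate numbers came from the labels, and replicates are separate pools of mice. Named were the 8 receptors with the smallest p under an odour, those most different in pulldown over input without odour, those with the highest and lowest level per kb, and receptors with names of their own in the field. The receptors, the lists and these rules were chosen with earlier results of these data known. Alternatives were DESeq2 1.42.0 and its size factors, other terms for pools or replicates, other filters and samples, ribosomal RNA as a covariate (312 genes), an adjusted p of 0.05, other prior counts and leaving out each pool. Coding identity was computed with edlib 1.3.9.post1 on GENCODE transcripts.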

Additional observations from a re-analysis of the deposited data

Results flagged for a closer look

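Among 68 groups of pools (17 named receptors by 4 odour groups), 1 had a pool far from the others, where chance gives about 1 in 20. For Olfr498, a receptor of block 2 with a mean of 8.3 counts in input, the NCD pool of replicate 1 had a log2 pulldown/input of 1.01, and the other 5 lay between -0.46 and -0.01.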

How the results depend on the processing

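Of 233 counts of calls recomputed under the alternatives, 216 stayed within 1.5 times the count reported and 17 did not. Every comparison except pulldown over input without odour had 0 calls as reported, and 0 against 0 was counted as unchanged. The 216 therefore says little about stability. Of 454 values of single receptors, 421 kept their direction and side of the threshold, 21 lost the call, 12 gained one and 0 changed direction. All 34 means with another prior count (0.5 or 5) stayed within 1 SD. Pulldown over input without odour gave 8 calls, and 5 with only the pools without odour in the fit. There were 4 with ribosomal RNA in the model and 15 at an adjusted p of 0.05. The 8 calls are 19.0% of the tested receptors against 35.8% of all genes, and the 15 are 35.7% against 59.5%. Leaving out 1 pool gave 6 to 9. For odour over no odour, with 0 calls under each odour, DESeq2 in the same design gave 1 call under NCD and 1 under BFD odour. After division of pulldown by input, DESeq2 made 2, 3 and 2 calls under NCD, BFD and HFD_lard odour. The receptors called there and the share of all genes called there are not given here. Without a filter beyond 1 count there were 2 calls under BFD odour (Olfr506 and Olfr698), and leaving out 1 pool gave 0 to 1 there, the 1 being Olfr698 without BFD replicate 1. At an adjusted p of 0.05 there were 5, 7 and 4 calls, and 5 in the input libraries. The shares were 11.9%, 16.7% and 9.52% against 13.1%, 22.5% and 15.7% of all genes, and in input 11.9% against 36.0%. Shares of all genes are given only for the main fit, an adjusted p of 0.05 and, for odour over no odour, DESeq2 in the same design. The other counts of calls have no such share beside them, so they do not show a gain or loss particular to these receptors. The cause of these differences was not tested.

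With a term for the replicate number as a block there were 3 calls in pulldown over input without odour (Olfr711, Olfr6 and Olfr17) and 0 in every other comparison. Without a term for the pool there were 10 calls there, 1 under NCD odour (Olfr2) and 1 under BFD odour (Olfr506). The shares of all genes called with these terms are not given here. The log2 ratios of pools of the same replicate number did not deviate together (27 pairs, correlation -0.214 to 0.112, median 0.02, and 1 pool correlated best with its own number). An effect common to both libraries of a pool cancels in the ratio. The check therefore cannot show whether pools of the same number share more than a number.

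The 95% interval reached a doubling in all but 27, 18 and 20 of the 42 receptors under NCD, BFD and HFD_lard odour, either because it was wide or because the estimate was high (Olfr506, Olfr698), and depth and the spread between pools were not separated. The 13 receptors without a test give no comparison. Of the 55 receptors 28 share over 10% of their words with other genes, so values within a close family are not independent. The no odour pools also differed from the odour pools in ribosomal RNA and, in the pulldown libraries only, in gland markers. These differences cannot be told apart from the odour.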
